A study of Mus musculus with 7 samples.

Results

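The Zfp genes described here are the mouse genes whose array symbol is Zfp followed only by digits, a name given over the years to many genes that encode zinc finger proteins. They were taken by that symbol alone, from probe sets annotated with exactly 1 gene, which gave 51 genes with 337 probe sets among 5032 genes with 53644 probe sets. Zfp36l1, Zfp354c and other Zfp names that carry a letter after the digits were not members. The 51 genes had a median of 6 probe sets each, from 1 to 21. RefSeq now names 4 of them otherwise: Zfp238 is Zbtb18, Zfp187 is Zscan26, Zfp192 is Zkscan8 and Zfp874 is Zfp874a. They lie on chromosomes 1 (4 genes), 10 (3), 11 (16), 12 (4), 13 (23) and 15 (1), and 46 of them are among the 367 protein-coding genes that RefSeq lists under such a symbol, 12.5%. The rest of this family was not analysed here. Most of the 4981 other genes also lie on chromosomes 1 (1146 genes), 10 (943), 11 (1537), 12 (632) and 13 (625). The members thus share their chromosomes with the measured genes, and a share of all genes below is not genome-wide.

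Messenger RNA was measured on Affymetrix arrays in the retinal pigment epithelium, or RPE, which is the layer of pigmented cells that supports the photoreceptors, dissected at postnatal day 5 from mouse pups. The pups came from crosses of Dicer1 flox/+ mice that carried Dct-Cre with mice whose Dicer1 alleles were both floxed. The 3 Dicer1-deficient arrays held RPE of the genotype Dicer1 loxP/loxP with Dct-Cre, a recombinase driven by the dopachrome tautomerase promoter of pigment cells, so that other cells in a dissection would keep Dicer1. The 4 control arrays held control RPE of unstated genotype, and the labels do not tie the arrays to separate animals, which means that a p-value here reflects variation among these samples only, some of it possibly technical. Dicer1 encodes the enzyme that releases mature microRNAs from their precursors, and the comparison asks what its loss does to the RNA of this tissue.

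Most Zfp proteins bind DNA through repeated fingers, each held in shape by 1 zinc ion between a pair of cysteines and a pair of histidines. Many also carry a KRAB domain, which recruits the co-repressor Trim28 and with it the histone methyltransferase Setdb1, and which in mice silences transposable elements and nearby genes. KRAB zinc finger genes multiplied by duplication and often stand side by side in clusters of near copies. The symbol also covers proteins of other kinds, such as the spindle assembly factor of Zfp207, the double-stranded RNA binding protein of Zfp346 and the SUMO ligase of Zfp451.

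Of the 51 members, 12 are neighbours in 1 cluster on chromosome 13, with no more than 2 other protein-coding genes between one and the next. It is the Rsl cluster, named after Rsl1, a KRAB zinc finger gene known for setting the difference between male and female liver gene expression. RefSeq holds a promoter window (250 bases before a start to 50 after it, GRCm38.p6) for 43 members, among them 11 of these 12. The windows of the cluster share a short element, which is shown here because it is the clearest feature that the neighbours have in common. It reads TGGGANNTGTAGTC, where N is any base, and was searched on both strands. The lines give it in capitals within 8 bases on either side, 5′ to 3′ on the strand of the gene.
Zfp708, chr13:67081577-67081606, minus strand: tagacttcTGGGAAATGTAGTCtctcttag
Zfp759, chr13:67128167-67128196, plus strand: ttgatttgTGGGAAATGTAGTCccggcccc
Zfp455, chr13:67194441-67194470, plus strand: aagacttcTGGGATATGTAGTCcaagcaac
Zfp458, chr13:67269152-67269181, minus strand: ctgacttgTGGGAAATGTAGTCccaacaat
Zfp457, chr13:67306471-67306500, minus strand: ctgacttgTGGGAAATGTAGTCccatcgcc
Zfp595, chr13:67332591-67332620, minus strand: ctgacttgTGGGAAATGTAGTCcctaccac
Zfp456, chr13:67375812-67375841, minus strand: cagacttcTGGGAGATGTAGTCcgcaccac
Zfp874 (Zfp874a), chr13:67451637-67451666, minus strand: cagacttgTGGGAAATGTAGTCtgcagcac
Zfp58, chr13:67500533-67500562, minus strand: cagacttgTGGGAATTGTAGTCtggccact
Zfp748, chr13:67553158-67553187, minus strand: cagacttgTGGGAAGTGTAGTCttccgttg
The element was picked on the strand of the gene, so its shared orientation in these 10 genes was fixed by that choice. Its first base lay between 179 and 27 bases before the start (-179 in Zfp458, -27 in Zfp748).

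The form of the element was chosen after the windows were seen. Among words of that form, with the same bases left free, the words listed next were in 5 cluster genes each. Those overlap the same stretch and are no separate elements. The element shown was the word found in most cluster genes. It was found in 10 of the 11 cluster genes with a window, all but Zfp459, in 1 of the 32 other members with a window (Zfp2 on chromosome 11, with its first base at -3) and in 0.836% of all 27025 genes with a window. By window it was in 19.3% of the 57 member windows and in 0.715% of all 32851 windows of the same length. Of the 307 genes with such a symbol and a window in RefSeq, measured here or not, 32 held it (10.4%). It resembles on its other strand the described site of ZNF143, a zinc finger activator of many widely expressed genes, and the match is a description only. The short motif CGGAAG, bound by ETS factors, was found on either strand in 40.4% of member windows against 16.9% of all windows. That motif holds a CG, and member windows had a median of 13 CG dinucleotides against 7 in all windows. The part of CG content in this share was not tested. CATGTG, an E-box form that the pigment cell factor MITF can bind, was in 8.77% against 14.2%. TATAAA was in 14% of member windows and 13.6% of all, and CCAAT in 43.9% and 37.4%. These shares count windows, and several of those with TATAAA are alternative starts of Zfp238 alone. CATGTG was in 3 of the 12 cluster windows (25%) and in 2 of the 45 windows of other members (4.44%). The cluster windows with it were those of Zfp874 and of Zfp457 and Zfp759, a pair with much alike promoters.

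The most alike promoters of the cluster were those of Zfp457 and Zfp759, shown whole because both genes also have negative values further on. Their windows were identical at 76.15% of aligned positions, against a median of 53.45% over the 45 pairs of cluster genes with a single window. Zfp595 was the next closest to both (61.22% to Zfp457 and 62.54% to Zfp759), and its log2 fold change was 0.02. Whether alike promoters go with alike changes was not tested. Capitals mark the shared element.
Zfp457, chr13:67306363-67306662, minus strand: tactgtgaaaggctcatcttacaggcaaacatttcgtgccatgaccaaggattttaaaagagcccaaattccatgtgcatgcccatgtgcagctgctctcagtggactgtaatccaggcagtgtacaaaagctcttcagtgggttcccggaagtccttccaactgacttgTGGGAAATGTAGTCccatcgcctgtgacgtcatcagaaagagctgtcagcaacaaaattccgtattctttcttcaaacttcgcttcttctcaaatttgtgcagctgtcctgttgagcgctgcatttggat
Zfp759, chr13:67127978-67128277, plus strand: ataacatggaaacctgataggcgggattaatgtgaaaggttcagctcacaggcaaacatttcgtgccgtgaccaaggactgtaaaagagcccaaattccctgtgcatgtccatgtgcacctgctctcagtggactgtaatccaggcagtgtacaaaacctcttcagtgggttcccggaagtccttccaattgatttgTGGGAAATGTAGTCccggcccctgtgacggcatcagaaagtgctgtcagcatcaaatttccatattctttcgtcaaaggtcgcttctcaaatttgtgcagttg

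Control 4 stood apart from the other 6 arrays, with Pearson correlations across all probe sets of 0.942 to 0.951 against 0.986 to 0.988 among controls 1 to 3 and 0.98 to 0.984 among the Dicer1-deficient arrays. Its median signal was 6.05, against 6.22 to 6.26 in the others. The deposited values are log2 signals, and a level here is the mean log2 signal of a gene's probe sets. Dicer1 itself read 8.10 to 8.38 in the controls and 8.21 to 8.26 in the arrays labelled Dicer1-deficient, on the mean of its 28 probe sets. The difference was -0.04 (limma adjusted p = 0.921), and without control 4, which read 8.10, it was -0.10 (limma adjusted p = 0.25). Every Dicer1-deficient array then lay below controls 1 to 3, a separation that 19.8% of all genes showed downward. Neither fit called Dicer1, so its loss was not shown by the test, and directions rest on the labels. Which of the 28 probe sets lie in the deleted part is not known here. Those outside it check nothing, so their mean could miss the loss. Of 22 RPE marker genes 8 were measured, and their mean level was 9.31 to 9.55 in controls 1 to 3, 9.40 in control 4 and 8.89 to 9.09 in the Dicer1-deficient arrays, with 3 fallen and none risen in limma. Fibroblast or sclera genes also read high, with 8 of 10 measured. Their mean was 10.21 to 10.35 over the controls and 9.74 to 10.06 in Dicer1-deficient arrays, with 2 fallen. Of 17 photoreceptor genes 5 were measured, with a mean of 4.41 to 4.98 and 4.79 to 5.58 and none called. In the controls this lay around the lower quartile of gene levels (4.64), so presence of photoreceptor RNA there was not shown. The Dicer1-deficient arrays all lay above that quartile, and the median log2 fold change of these 5 genes was 0.50. The 3 measured of 7 melanocyte or Schwann cell genes had a mean of 6.55 to 6.87 over the controls and 6.14 to 6.26 in Dicer1-deficient arrays, with 2 fallen. For 7 of 14 genes of retinal progenitors or neurons it was 5.36 to 5.69 and 5.56 to 6.14, with 1 risen and 1 fallen and a median log2 fold change of 0.45. Without control 4, limma called 5 of the 8 RPE genes and 5 of the 8 fibroblast or sclera genes lower. The 3 melanocyte or Schwann cell genes were also called lower there, and none of these genes was called higher. Of all genes 2.84% fell with all arrays and 10.3% without control 4. The part of these differences in the results for Zfp genes was not tested. In such dissected tissue fewer cells of a type and less RNA per cell cannot be told apart.

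Zfp genes as a whole read low in control 4. In that array 36 of the 51 members lay below the mean of controls 1 to 3, and the median difference was -0.17 on the log2 scale. All other genes had a median difference of -0.07 in that array, with 56.3% of them below. The cluster on chromosome 13 was lower still, at a median of -0.20 with 10 of 12 genes below. The direction differed with the level. Leaving out control 4 moved the median log2 fold change (Dicer1-deficient minus control) of other genes at or above the median level from 0.015 to -0.051. For dimmer other genes it went from -0.027 to 0.033. Members moved alike, from 0.035 to 0.0009 and from 0.0025 to 0.032. The part of level in the lower reading of the members was not tested. In every other array the median member lay within 0.05 of the rest of its group. The results are therefore given with all 7 arrays and without control 4.

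**Figure D1:**
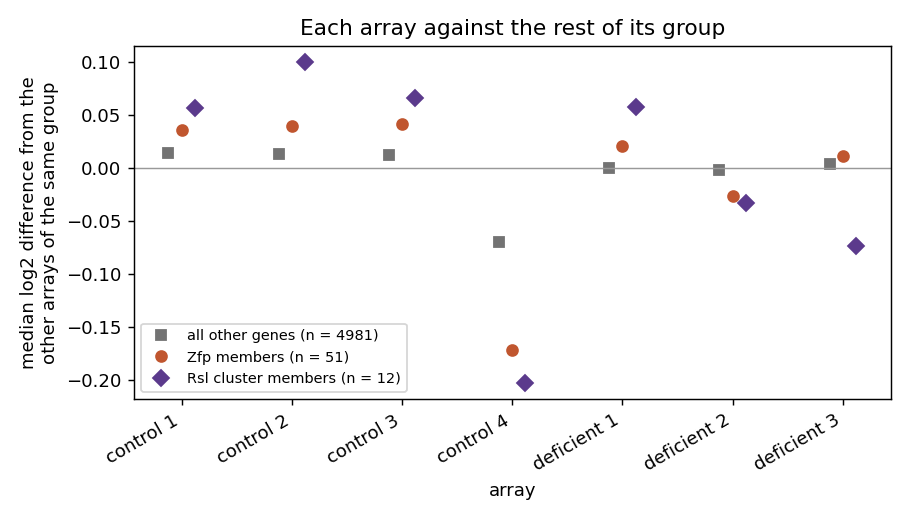
Median log2 difference of each array (x axis) from the mean of the other arrays of its own group (y axis), for the 51 Zfp genes, the 12 cluster genes among them and the 4981 other genes. Control 4 sits at -0.17 for the Zfp genes, -0.20 for the cluster and -0.07 for the others, and every other point lies between -0.07 and 0.10.

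The Zfp genes were nearly level between Dicer1-deficient and control RPE. No member passed limma's test on all 7 arrays at a Benjamini-Hochberg adjusted p of 0.05 over all 5032 genes, where 5.88% of all genes passed (3.04% higher and 2.84% lower). At an unadjusted p under 0.05, 3 of the 51 stood out against 16.9% of all genes. In 5 of the 51 no array of one group fell within the range of the other, against 18.9% of all genes. These were Zfp238, Zfp369 and Zfp781, with higher values in every Dicer1-deficient array, and Zfp3 and Zfp457, with lower ones, where 10.2% of all genes were so separated upward and 8.66% downward.

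The median log2 fold change, Dicer1-deficient minus control, was 0.025 over the members and -0.014 over all other genes, and the member median turned to -0.005 when each array was centred on its median. Negative values were held by 20 of the 51 members (39.2%) and by 54.5% of the other genes, and under that centring by 52.9% and 63%. The widest member difference was 0.35 in size, while the other genes reached 3.31. A change of more than 1.25-fold either way was shown by 2 members, Zfp369 and Zfp238, or 3.92%, against 11.1% of all genes. No member differed by more than 1.5-fold or 2-fold, as 3.06% and 0.974% of all genes did. The interquartile range of log2 fold changes was 0.13 in members and 0.19 in other genes.

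The spread of the fits sets what could have been missed. The median standard error of a member's difference was 0.10, close to the 0.11 of other genes. The 95% interval of the difference lay inside 2-fold either way for all 51 members (97.5% of all genes) and inside 1.5-fold for 49 of them (96.1%), all but Zfp238 and Zfp369, against 86.8% of all genes. Inside 1.25-fold lay the intervals of 24 members, 47.1%, against 39.9% of all genes. In simulated data with the same genes and group sizes, the fit found 61.9% of genes given a log2 change of 0.5 and 7.71% of those given 0.25, so differences of the size seen here were mostly beyond its reach. The simulation held no array like control 4.

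Without control 4 the fit called more genes, and few of them were Zfp genes. Of all genes 17% then passed (6.74% higher and 10.3% lower), and of the members 2 of 51, or 3.92%: Zfp369 rose and Zfp457 fell. At an unadjusted p under 0.05 there were 10 members (19.6%) against 30.8% of all genes. Arrays did not overlap in 13 members (25.5%) against 36.5% of all genes, 5 of them higher (16.7% of all genes) and 8 lower (19.8%). A change past 1.25-fold was left in 1 member, 1.96%, against 11.7% of all genes, and none was past 1.5-fold (3.38%) or 2-fold (0.954%). The intervals lay inside 1.25-fold for 39 members (63.6% of all genes), inside 1.5-fold for 50 (90.6%) and inside 2-fold for all 51 (97.8%). The member median was 0.011 and that of other genes 0.0038. No member passed when any 1 of the other 6 arrays was left out.

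**Figure D2:**
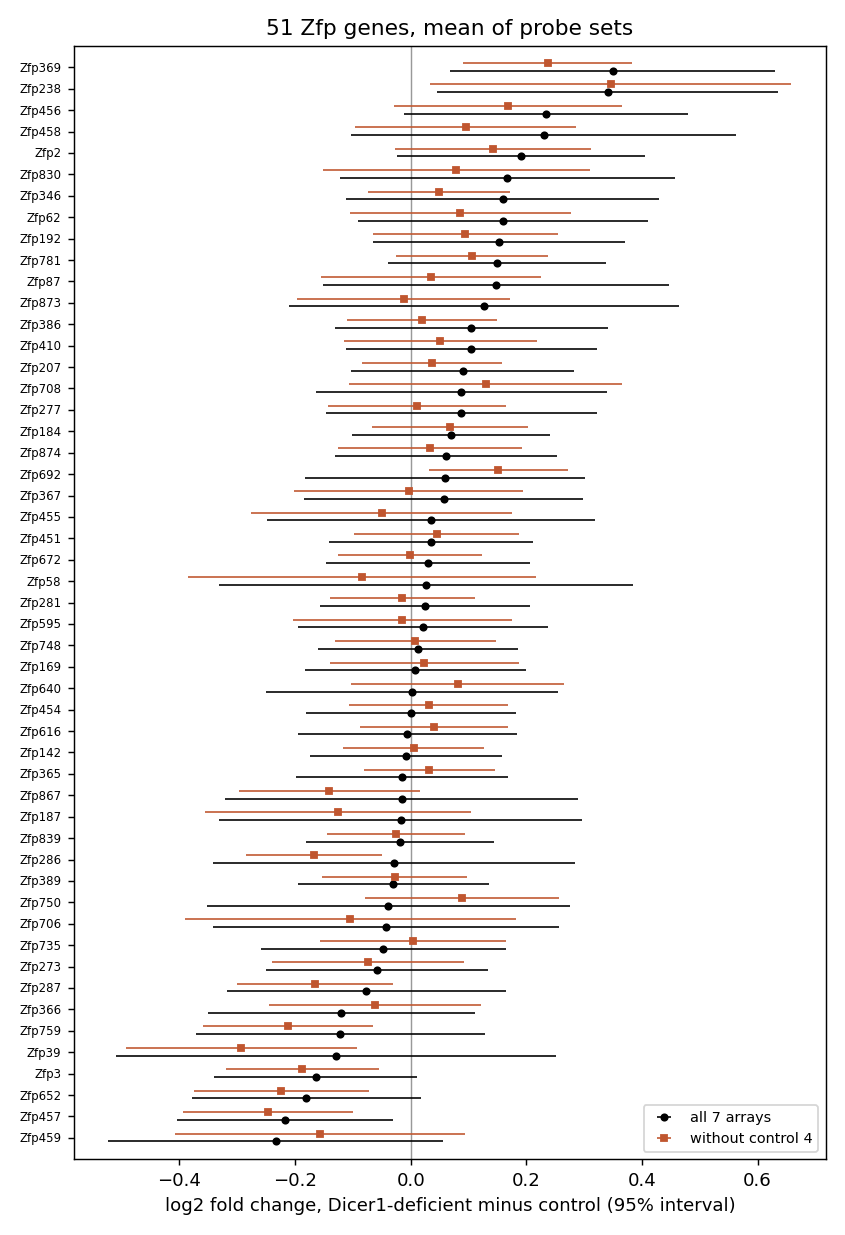
Log2 fold change (x axis, points) with its 95% limma interval (bars) for each of the 51 Zfp genes (y axis), with all 7 arrays in black and without control 4 in orange. Most intervals cross 0, and all lie inside 1 log2 unit, that is 2-fold, on either side.

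**Figure D3:**
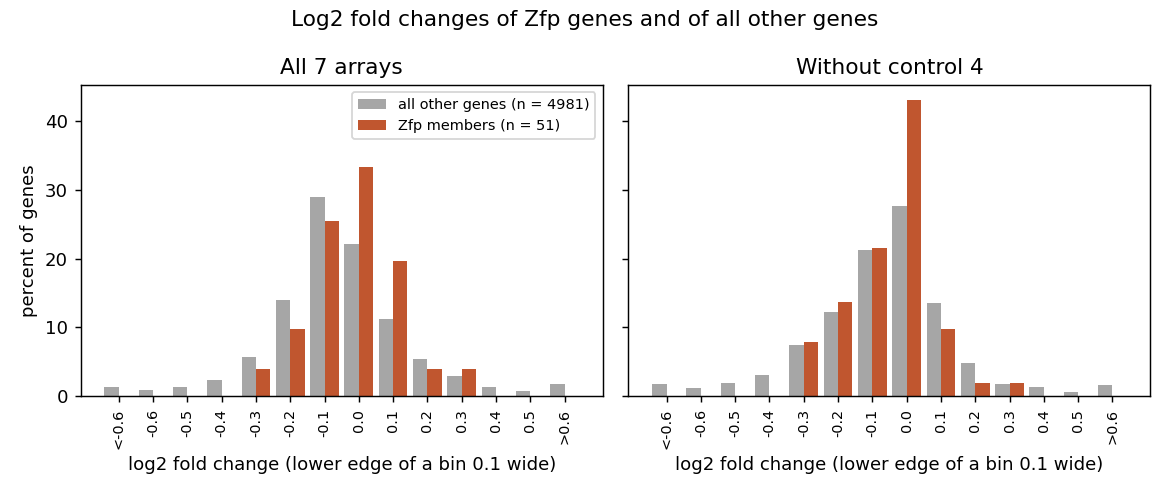
Percent of genes (y axis) by log2 fold change in bins 0.1 wide (x axis), for the 51 Zfp genes in orange and the 4981 other genes in grey, with all arrays (left) and without control 4 (right). No Zfp gene falls beyond 0.4 on either side, where the other genes have tails.

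Zfp genes spanned the range of signals. The median member level was 6.15 and that of other genes 5.98, with 30 members at or above the median of all genes. At the dim end 7 members lay below the lower quartile of gene levels (4.64), where a level was not shown to be above background and a change could be hidden. Among members at or above the median of all genes, 1 of 30 had an unadjusted p under 0.05, against 24.3% of other genes as bright. Among dimmer members it was 2 of 21, against 9.66% of other dim genes.

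The 5 brightest members in control were Zfp706, Zfp207, Zfp652, Zfp62 and Zfp781, and none passed the test. Zfp706, a small zinc finger gene known from the exit of stem cells from pluripotency, read 11.30, 11.01, 11.19 and 10.92 in controls 1 to 4 and 11.08, 10.82 and 11.29 in Dicer1-deficient arrays 1 to 3 at its only probe set. Both groups spread over the same range, and the difference was -0.04 (95% interval -0.34 to 0.26). Zfp207, whose product binds Bub3, read 9.93, 9.85, 9.90 and 9.68 in control and 9.93, 9.90 and 9.96 in Dicer1-deficient arrays over 21 probe sets. Only control 4 stood below the rest, and without it the difference was 0.04 (95% interval -0.08 to 0.16).

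Zfp652 encodes a DNA-binding repressor that works with the co-repressor CBFA2T3. It read 9.27, 9.18, 9.22 and 9.05 in control and 9.01, 8.90 and 9.10 in Dicer1-deficient arrays, so that the groups overlapped only through control 4. The difference was -0.18 (SE 0.09, limma adjusted p = 0.351), and it was -0.22 when control 4 was left out (adjusted p = 0.0519). All 5 of its probe sets had negative values. Zfp62 had a log2 fold change of 0.16 (95% interval -0.09 to 0.41) and Zfp781, a gene of chromosome 10, 0.15 (-0.04 to 0.34). The arrays of Zfp781 did not overlap, at 7.70 to 7.94 in control and 7.96 to 7.99 in Dicer1-deficient arrays, so the nearest arrays of the groups all but touched.

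Zfp369 had the highest log2 fold change of the family with all arrays, and Zfp238 without control 4. Its product is known as NRIF2, a partner of the p75 neurotrophin receptor related to the KRAB zinc finger proteins. It read 7.13, 7.09, 6.99 and 6.62 in control and 7.24, 7.37 and 7.30 in Dicer1-deficient arrays, on 11 probe sets of which 10 were higher. Every Dicer1-deficient array was above every control, and control 4 was the lowest. The difference was 0.35 (SE 0.13, limma adjusted p = 0.168) with all arrays. Without control 4 it was smaller, 0.24 (95% interval 0.09 to 0.38), and passed with an adjusted p of 0.0378.

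Zfp238, now Zbtb18, encodes a BTB-domain repressor of neuronal development that holds down genes of the neural progenitor programme. It read 4.99, 4.96, 4.86 and 4.96 in control and 5.61, 5.01 and 5.23 in Dicer1-deficient arrays on the mean of its 4 probe sets. The controls lay close together and the Dicer1-deficient arrays spread widely, with array 2 only just above them. The difference was 0.34 (SE 0.13, limma adjusted p = 0.205), and leaving out control 4 gave 0.35 (adjusted p = 0.128).

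The probe sets of Zfp238 differed in size of change. Probe set 10352096 read 6.74, 6.87, 6.83 and 6.69 in control and 7.70, 7.49 and 7.50 in Dicer1-deficient arrays. The groups were far apart against the spread within each. In the fit over all 53644 probe sets it rose (log2 fold change 0.78, adjusted p = 0.0305 in limma, and 0.0244 with control 4 left out). The other 3 probe sets of the gene, were all dimmer and had log2 fold changes of 0.07 to 0.32. When each gene was represented by its brightest probe set, Zfp238 was the only member to pass, with an adjusted p of 0.00886 over all genes.

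It was also the only 1 of the 337 member probe sets to pass in that fit, 0.297% against 1.06% of all probe sets, and again the only 1 without control 4, where 2.3% of all passed. At an unadjusted p under 0.05 there were 19 member probe sets (5.64%) against 11.7% of all. Of the 48 members with more than 1 probe set, 10 had all probe sets on 1 side of 0 and 38 had them on both. Zfp2, an early cloned finger gene of chromosome 11, is an example: its log2 fold change was 0.19 (adjusted p = 0.363) on the mean, from -0.27 to 0.80 over its 8 probe sets.

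**Figure D4:**
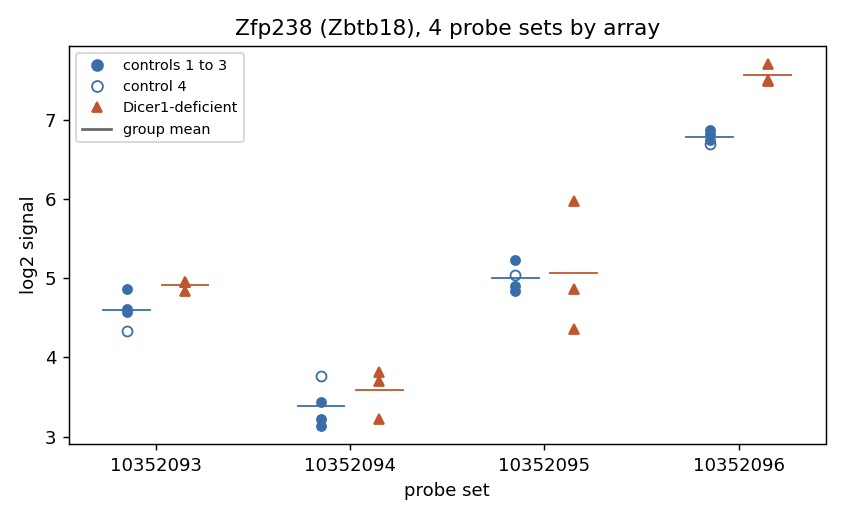
Log2 signal (y axis) of the 4 probe sets of Zfp238 (x axis) in each array, with controls as circles (control 4 open), Dicer1-deficient arrays as triangles and group means as lines. At probe set 10352096 the Dicer1-deficient arrays sit at 7.49 to 7.70, above all controls at 6.69 to 6.87, and at the other 3 the differences between the group means are 0.07 to 0.32.

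The cluster on chromosome 13 showed no shared shift. None of its 12 genes passed with all arrays, and the median log2 fold change was 0.03, with 3 negative values. Without control 4 the median was -0.003, with 6 negative values, and Zfp457 alone passed. The 39 other members had medians of 0.01 and 0.02. None of the 11 members with the promoter element passed (median 0.04), nor did any of all 72 measured genes with it (median 0.02), where 5.88% of all genes passed. Of the 3989 measured genes with a window but no element, 128 rose and 117 fell, and the difference between these counts was not tested. Without control 4, 10 of the 72 passed, against 17% of all, and their median turned to -0.04.

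Zfp457 is a KRAB zinc finger gene of the cluster. It read 5.88, 6.0035, 5.94 and 5.83 in control and 5.67, 5.63 and 5.78 in Dicer1-deficient arrays, below every control. The difference was -0.22 (SE 0.08, limma adjusted p = 0.202), and -0.25 without control 4 (95% interval -0.39 to -0.10, adjusted p = 0.0342). All 3 of its probe sets had negative values, from -0.44 to -0.02.

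Zfp759, whose promoter was the most like that of Zfp457, read 6.72, 6.80, 6.77 and 6.40 in control and 6.46, 6.54 and 6.65 in Dicer1-deficient arrays. Control 4 lay below all of these and controls 1 to 3 above. Its log2 fold change was -0.12 (limma adjusted p = 0.723), and it came to -0.21 with control 4 omitted (adjusted p = 0.0562), and its 4 probe sets were all negative. Zfp459, which lacks the element, had the most negative value of the family with all 7 arrays, -0.23 (95% interval -0.52 to 0.06), at a level of 4.47 ± 0.17 (SD, n = 4) in control, below the lower quartile of all genes. It read 4.34, 4.36, 4.47 and 4.70 in control and 4.08, 4.12 and 4.50 in Dicer1-deficient arrays, which overlapped. Without control 4 it was -0.16, and Zfp39 had the most negative value, -0.29.

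The other genes of the cluster had values near or above 0. Zfp456, between Zfp595 and Zfp459, read 5.72, 5.58, 5.64 and 5.39 in control and 5.9957, 5.75 and 5.70 in Dicer1-deficient arrays, a log2 fold change of 0.23 (95% interval -0.01 to 0.48, limma adjusted p = 0.322). Zfp458, next to Zfp457, read 6.83, 6.95, 6.68 and 6.28 in control and 7.02, 6.91 and 6.82 in Dicer1-deficient arrays. Its difference of 0.23 went to 0.10 without control 4. The remaining cluster genes had log2 fold changes of 0.15 (Zfp87), 0.09 (Zfp708), 0.06 (Zfp874), 0.04 (Zfp455), 0.03 (Zfp58), 0.02 (Zfp595) and 0.01 (Zfp748). Zfp58 and Zfp87 were the brightest genes of the cluster, at 7.38 ± 0.22 and 7.44 ± 0.23 (SD, n = 4) in control.

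Rsl1, the regulator that gives the cluster its name and no member by its symbol, read 5.96 ± 0.15 (SD, n = 4) and 6.23 ± 0.17 (SD, n = 3), a difference of 0.27 (limma adjusted p = 0.256). Genes of this cluster are related in sequence, and how far their probe sets share signal is uncertain. Zfp874 may stand for Zfp874a or its neighbour Zfp874b. Another 13 probe sets that name a Zfp gene together with other genes were left out.

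**Figure D5:**
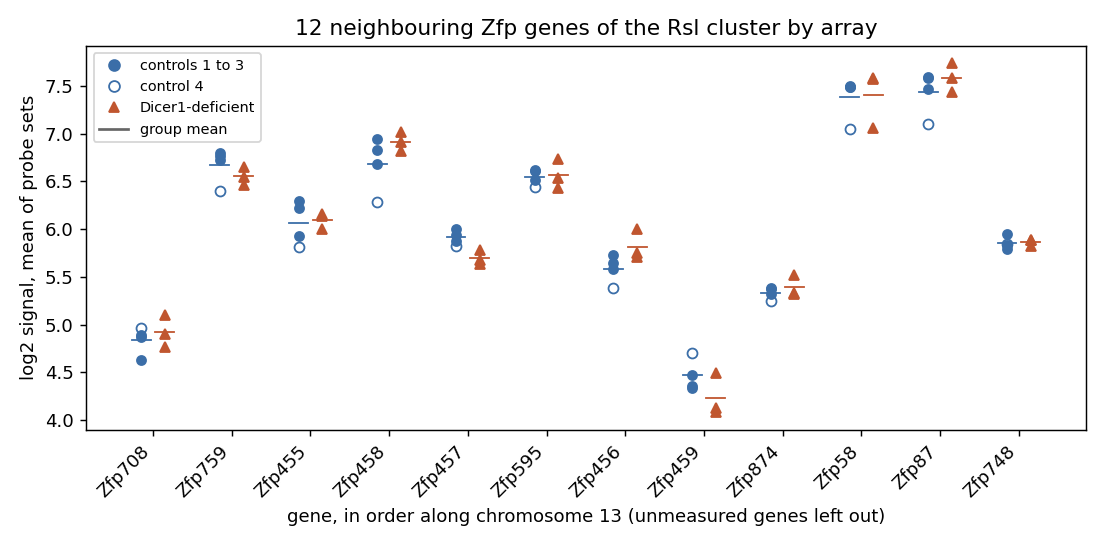
Log2 signal (y axis, mean of a gene's probe sets) of the 12 neighbouring Zfp genes of the Rsl cluster in their order along chromosome 13 (x axis) in each array, with controls as circles (control 4 open), Dicer1-deficient arrays as triangles and group means as lines. The groups overlap in every gene but Zfp457, and control 4 is the lowest control in most genes.

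By chromosome, the 16 members on chromosome 11 had a median log2 fold change of -0.01, against -0.02 for the 1537 other genes there, and the 23 on chromosome 13 had 0.03 against -0.01 for 625. On chromosome 1 the 4 members had a median of 0.03 against -0.01 for the other genes there. On chromosome 10 the 3 members had 0.13 against -0.02, and on chromosome 12 the 4 had 0.10 against -0.01. Leaving out control 4 brought the members of chromosomes 10 and 12 to 0.03 and 0.02.

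Of the remaining members with the most negative values, Zfp39 read 6.29, 6.33, 6.47 and 5.71 in control and 6.02, 5.96 and 6.24 in Dicer1-deficient arrays. Control 4 lay below all Dicer1-deficient arrays and the other controls above them. The difference of -0.13 (limma adjusted p = 0.839) became -0.29 without control 4 (adjusted p = 0.0535). Zfp3 read 6.11, 6.21, 6.12 and 6.06 in control and 5.99, 5.90 and 5.99 in Dicer1-deficient arrays, with no overlap and a difference of -0.16 (limma adjusted p = 0.33, or 0.0614 when control 4 was left out).

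Zfp281, Zfp451, Zfp830, Zfp692, Zfp365 and Zfp750, further members with a described function, overlapped between the groups with all arrays. None of them passed the test. Zfp281, a regulator of pluripotency genes, read 7.66 ± 0.09 (SD, n = 4) in control arrays, against 7.68 ± 0.04 (SD, n = 3) in Dicer1-deficient ones, with an interval of -0.16 to 0.21 for the difference. Zfp451, the SUMO ligase gene, read 7.52 ± 0.03 and 7.56 ± 0.09, with an interval of -0.14 to 0.21 over 18 probe sets. Zfp830, a splicing factor gene needed in early embryos, read 4.78 ± 0.19 and 4.94 ± 0.20, an interval of -0.12 to 0.46, and all 3 of its probe sets were positive.

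Zfp692 is known for binding the promoter of a gluconeogenesis gene. It read 6.10, 6.10, 6.16 and 6.49 in control and 6.24, 6.30 and 6.29 in Dicer1-deficient arrays. Here control 4 was the highest array, and the log2 fold change went from 0.06 (limma adjusted p = 0.9) to 0.15 without it (adjusted p = 0.0898). Zfp365, a brain gene whose product binds Disc1, and Zfp750, a factor of epidermal differentiation, read 4.21 ± 0.09 and 4.37 ± 0.26 (SD, n = 4) in control, below the lower quartile of all genes, with differences of -0.02 and -0.04 that turned to 0.03 and 0.09 without control 4.

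Other zinc finger genes were counted for comparison by symbol forms such as Zbtb, Klf, Ikzf and Zfp with letters. Of 42 measured, 2 rose and 1 fell (limma, all arrays), which is 7.14% against 5.88% of all genes. The risen ones were Ikzf4 (0.57, adjusted p = 0.00253) and Ikzf2 (0.43, adjusted p = 0.0271), of the Ikaros family of lymphocyte regulators, and the fallen one was Zfp354c (-0.41, adjusted p = 0.0355), a KRAB gene whose name keeps it out of the 51. The median of the 42 was 0.02, and without control 4 there were 3 higher and 5 lower, 19% against 17% of all genes.

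The partners of KRAB proteins were represented by 8 of 41 listed co-repressor and heterochromatin genes, and Trim28 and Setdb1 were not analysed here. None of the 8 passed with all arrays (median -0.04). Without control 4, where 17% of all genes passed and 10.3% did so downward, 3 of the 8 fell: Mta1 (-0.27, limma adjusted p = 0.0131), Mbd3 (-0.25, 0.0296) and Hdac2 (-0.27, 0.0349). With all arrays their values were -0.20, -0.19 and -0.15. All are known as parts of the NuRD deacetylase complex, as is Chd3, which had 0.02 with all arrays and -0.01 without control 4. The heterochromatin proteins Cbx1 and Cbx3 had log2 fold changes of 0.05 and 0.06, and -0.03 and -0.05 without control 4. Dnmt3a, a DNA methyltransferase gene, had 0.16 (adjusted p = 0.366).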

How the data were processed

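RNA of dissected RPE was hybridised to Affymetrix arrays. Signals of 7 arrays were deposited as 1 table of log2 values (4 control, 3 Dicer1-deficient), and the submitters' processing notes name RMA and Partek 6.6. Which filters the authors applied, and to which build, is not given in the sources used here. Of 65535 probe sets, 53644 have 1 symbol in the platform annotation, 877 several, and 11014 are unnamed here. The mean of a gene's probe sets was compared with limma 3.58.1 (lmFit, eBayes, two-sided, Benjamini-Hochberg over 5032 genes, threshold 0.05), in R 4.3.3, with Python 3.11.15, pandas 2.3.3, Biopython 1.88 and matplotlib 3.10.9. Depth has no meaning for arrays, and their number limits the precision. No detection calls were used.

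Members and lists were chosen with earlier results of these data known. The genes named are any members past the test, the 6 highest and 6 lowest log2 fold changes, the 5 brightest in control, members past the test only without control 4, listed described genes, and by position the 12 of the cluster. Protein features planned for this comparison were not used here. In 10 simulations with 200 changed genes, 5.22% of calls were false. Alternatives covered the gene summary, normalization, dim genes, moderation, array weights, membership, the threshold and each array left out. The fit over probe sets was added after the data were seen.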

Additional observations from a re-analysis of the deposited data

Results flagged for a closer look

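In 7 of the 51 Zfp genes 1 control array lay far from the other 3, by the gap to the nearest array over the range of the 4 (critical value 0.829), against 15.3% of the other genes (13.7% of members). Chance gives about 1 in 20 groups. The array was control 4 in all 7. It was the low one for Zfp286 (0.962, at 4.92 against 5.46 to 5.48), Zfp58 (0.96), Zfp346 (0.948), Zfp386 (0.937) and Zfp867 (0.859), and the high one for Zfp365 (0.924) and Zfp692 (0.847). The mean over all members was separated in the same way (0.922), at 6.22 in control 4 and 6.36 to 6.37 in the others. Of 761 such genes among the other 4981, 696 were set apart by control 4.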

How the results depend on the processing

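No paired analysis was possible because the labels give no replicate numbers shared between the groups. The members past the test were 0 in the reported fit, 1 (risen) at the brightest probe set, 4 with array weights (1 higher, Zfp369, and 3 lower, Zfp457, Zfp652 and Zfp3), 0 to 2 with 1 array left out (0 to 1 higher, 0 to 1 lower, both without control 4), and 0 under the other alternatives tried, an adjusted p of 0.10 included. Of all genes, 5.88% passed in the reported fit, 2.42% at the brightest probe set, 19.6% with array weights and 17% without control 4. Array weights gave control 4 a weight of 0.0926. Over all genes the count was 296, against 122 at the brightest probe set, 179 on the median of probe sets, 142 without moderation, 984 with array weights, 96 and 452 at adjusted p of 0.01 and 0.10, and 123 to 856 with 1 array left out. For the other zinc finger families it was 3, against 0, 1, 1, 7 and, at adjusted p of 0.01, 1, and 1 to 8 with 1 array left out, and for the co-repressor genes 0, against 3 with array weights and 0 to 3 with 1 array left out. The median of the other genes moved from -0.0137 to -0.0435 under median centring and 0.0149 among genes at or above the median level, and ran from -0.0198 to 0.0038 with 1 array left out.

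Of 366 comparisons of a named gene or Dicer1 with an alternative, 343 kept direction and side, 7 passed the test where the reported value did not, and 16 turned sign with no call either way. The turned values were, at the brightest probe set, -0.0717 (Zfp458), 0.24 (Zfp365) and -0.0633 (Zfp692). On the median of probe sets they were -0.0279 (Zfp451) and 0.29 (Dicer1), and under median centring -0.0047 (Zfp281). With array weights they were -0.00023 (Zfp281), 0.0304 (Zfp365) and 0.0753 (Zfp750). With 1 array left out, log2 fold changes ran from -0.159 to 0.0804 for Zfp706, -0.0142 to 0.0534 for Zfp281, -0.0334 to 0.0321 for Zfp365, -0.0013 to 0.0838 for Zfp451 and -0.098 to 0.0894 for Zfp750, and the sign turned without control 1 (Zfp706), control 4 (Zfp281, Zfp365, Zfp750), Dicer1-deficient array 1 (Zfp750) or 2 (Zfp706, Zfp451). The cause of these moves was not tested. Dim probe sets limit what could be seen.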
